A study of Mus musculus with 2 samples.

Results

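The proteasome and ubiquitin-conjugating enzyme genes were taken as every protein-coding gene of GENCODE M21 (mouse build mm10, GRCm38) whose symbol begins with Psma, Psmb, Psmc, Psmd, Psme, Psmf or Psmg followed by a number, or with Ube2. This gave 87 genes among 21853, of which 50 were proteasome genes and 37 were ubiquitin-conjugating (Ube2) genes. Accessible chromatin was measured by ATAC-seq, in which a transposase cuts and tags open DNA, in 2 libraries of megakaryocyte-erythroid progenitors, the bone marrow cells that give rise to platelets and red cells. The donors were adult C57BL/6J males, 5 to 6 weeks old, without a stated treatment or mutation, and 50000 cells went into each library. The labels number the libraries as biological replicates 1 and 2 with a biosample each but the same donor entry, so separate animals are not stated. There is 1 group and no untreated or other cell type beside it, so every comparison below is between genes within these libraries and no test of a condition was possible.

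The proteasome is the large protease that degrades proteins tagged with ubiquitin. Its barrel-shaped core (20S) is built of alpha subunits, which form the gate, and beta subunits, some of which carry the proteolytic sites, and its regulatory particle (19S) binds, unfolds and feeds in the substrate. Ubiquitin reaches substrates through an activating enzyme (E1), a conjugating enzyme (E2, most of the Ube2 genes) and a ligase (E3). Related E2 enzymes carry the ubiquitin-like proteins such as NEDD8 and ISG15. Interferon induces the immunoproteasome, in which Psmb8, Psmb9 and Psmb10 replace the catalytic subunits Psmb5, Psmb6 and Psmb7, together with the activator subunits Psme1 and Psme2. Red cell precursors depend on ubiquitin-mediated clearance of proteins as they mature into reticulocytes, and Ube2o and Ube2h are E2 enzymes known for their part in it.

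The promoter sequences below show the motif matches that the section on sequence describes. Each is read 5′ to 3′ on the gene's coding strand from GRCm38, with 40 bases on either side of the match, and the capitals mark the match in either orientation. The first set holds the 4 proteasome promoters of highest fold with the ETS core CCGGAAG, followed by Ube2v2, the member with the highest promoter fold of all. They lie at chr14:14120944-14121030 (minus strand), chr2:91053922-91054008 (plus strand), chr11:80428564-80428650 (plus strand), chr16:20651586-20651672 (plus strand) and chr16:15594483-15594569 (minus strand).
Psmd6: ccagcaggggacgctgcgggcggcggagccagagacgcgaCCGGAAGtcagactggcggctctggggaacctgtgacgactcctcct
Psmc3: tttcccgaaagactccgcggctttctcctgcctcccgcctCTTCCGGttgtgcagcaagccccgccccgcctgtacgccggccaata
Psmd11: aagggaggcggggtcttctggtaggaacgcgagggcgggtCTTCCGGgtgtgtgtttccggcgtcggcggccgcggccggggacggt
Psmd2: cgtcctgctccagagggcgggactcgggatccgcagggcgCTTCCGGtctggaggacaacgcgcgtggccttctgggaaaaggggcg
Ube2v2: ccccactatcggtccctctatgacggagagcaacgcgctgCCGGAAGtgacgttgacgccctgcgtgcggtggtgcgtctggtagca

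The next set holds matches to an antioxidant response element core, TGACNNNGC, the element class bound by the NRF factors that control proteasome genes. Psmb5 and Psmb6 are shown because they encode catalytic subunits and Psmc4 because it had the highest fold among the members with a match. They lie at chr14:54617994-54618082 (minus strand), chr11:70525308-70525396 (plus strand) and chr7:28049981-28050069 (minus strand).
Psmb5: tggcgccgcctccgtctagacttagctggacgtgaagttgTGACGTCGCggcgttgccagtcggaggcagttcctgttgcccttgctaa
Psmb6: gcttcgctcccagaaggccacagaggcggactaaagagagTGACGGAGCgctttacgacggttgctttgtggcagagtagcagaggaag
Psmc4: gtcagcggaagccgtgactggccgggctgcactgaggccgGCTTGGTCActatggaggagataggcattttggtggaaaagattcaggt

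The last set bears on interferon-response sequence. Psme1, which interferon induces, and Psma4, a constitutive alpha subunit, carried an interferon-stimulated response element (ISRE) core, GAAANNGAA, at chr14:55578464-55578552 and chr9:54950546-54950634, both on the plus strand. The Psmb9 promoter, which it shares with Tap1, had no such match within 150 bp of its summit. The rest of that region, which is 812 bp wide, was not searched in this window. Its CCAAT box is shown at chr17:34187294-34187378 on the minus strand.
Psme1: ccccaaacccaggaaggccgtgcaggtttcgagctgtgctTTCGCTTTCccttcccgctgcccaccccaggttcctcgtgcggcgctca
Psma4: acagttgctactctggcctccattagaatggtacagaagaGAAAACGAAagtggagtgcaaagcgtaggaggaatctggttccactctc
Psmb9: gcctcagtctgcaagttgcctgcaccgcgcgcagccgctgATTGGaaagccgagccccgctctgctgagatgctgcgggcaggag

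Most of the genes had an open promoter. A promoter was counted as open when a region of the IDR-thresholded list of both libraries (regions whose rank repeated between splits of 1 library) overlapped the transcription start site (TSS) ± 1 kb. This held for 70 of the 87 genes (80.5%), against 45.7% of all protein-coding genes. The proteasome genes were open in 43 of 50 (86.0%) and the Ube2 genes in 27 of 37 (73.0%). Replicate 1 alone gave 45 and 30 (all genes 47.7%), and replicate 2 alone gave 44 and 29 (all genes 47.9%). In the conservative list, which the authors made from both libraries by the same rank method, 47 of 50 and 33 of 37 were open, against 54.5% of all genes. In the longer pseudoreplicated list of each library the counts in both were again 47 and 33, against 56.5% of all genes. Genes are not replicates and their promoters can be shared, so these shares describe the libraries and carry no p-value.

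The height of each open promoter was read from the fold at the summit of its region, a value of the authors' peak caller that serves to rank regions within a list. The median over both libraries' mean was 9.40 for the 43 open proteasome promoters (range 4.04 to 12.2) and 7.46 for the 27 open Ube2 promoters (range 4.50 to 14.8), beside 8.63 for the 9948 open promoters of all genes with a matched region. By library the medians were 8.92 and 7.59 in replicate 1 (all genes 8.40) and 9.39 and 7.51 in replicate 2 (all genes 8.84). The proteasome median lay above, and the Ube2 median below, that of all open promoters in each library. Above the median of all genes were 26 of 43 proteasome genes and 12 of 27 Ube2 genes. Replicate 2 gave the higher fold at 34 of 43 proteasome promoters and 16 of 27 Ube2 promoters, against 66.6% of all open promoters. The libraries differed by under 1 fold unit at 28 of 43 and 21 of 27, a count not made for all genes. The median SD between libraries was 0.549 for proteasome, 0.306 for Ube2 and 0.456 for all open promoters.

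**Figure D1:**
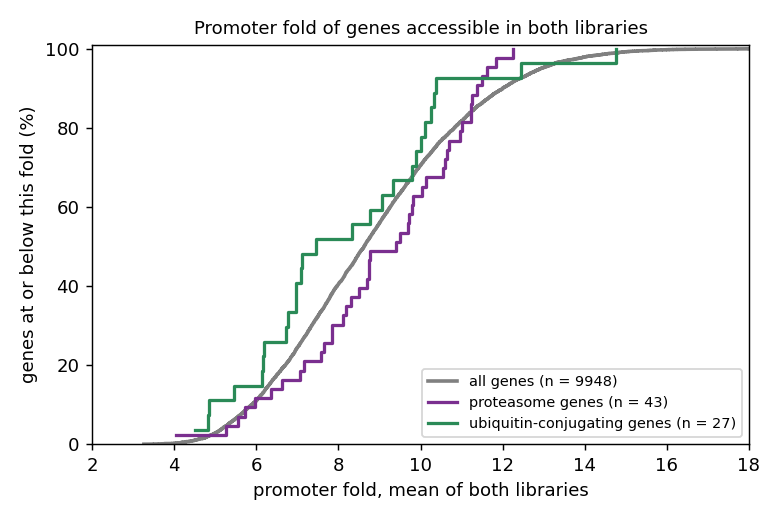
Cumulative share of genes (vertical axis, percent) against promoter fold, the mean of both libraries (horizontal axis), for promoters open in both libraries: all genes (grey, n = 9948), proteasome genes (purple, n = 43) and Ube2 genes (green, n = 27). The purple curve runs to the right of the grey one through the middle of the range, with a median of 9.40 against 8.63, and the green curve to its left, with a median of 7.46.

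The alpha subunits of the core were open in 7 of 8 genes, with folds of 7.56 to 12.2. Psma5 had the highest fold of any proteasome gene, 12.1 in replicate 1 and 12.4 in replicate 2 (mean 12.2 ± 0.25, SD, n = 2), higher than 91.5% of all open promoters. Its −log10 p was 85.8 and 89.4. Psma7 was the lowest of the open alpha genes at 7.52 and 7.61, so in each library it stood below Psma5. Psma8, the alpha subunit specific to the testis, had no promoter region in any list of either library.

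The constitutive beta subunits were open in 6 of 7 genes, with mean folds of 7.64 to 10.6. Psmb6, a catalytic subunit, had the highest mean, with 11.0 in replicate 1 and 10.2 in replicate 2, although Psmb2 was higher in replicate 2 at 10.7. Psmb7, the catalytic subunit of trypsin-like activity, had the lowest mean, with 7.33 and 7.95, although Psmb3 was lower in replicate 1 at 7.04. Psmb4, a structural subunit, reached the IDR-thresholded list of replicate 2 only, at 9.12, while replicate 1 listed it at 6.48 in its longer list. The region at Psmb4 was thus listed in both libraries, below the threshold in replicate 1.

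The genes counted with the regulatory particle were open throughout, with all 6 ATPases (Psmc genes) and all 14 Psmd genes called in both libraries. Of the Psmd genes, Psmd5, Psmd9 and Psmd10 encode assembly chaperones and are counted here by symbol. Among the ATPases, Psmc3 had the highest mean, with 11.1 and 12.1, although Psmc4 was higher in replicate 2 at 12.4. Psmc2 was lowest in each library with 5.87 and 4.64. Outside the promoter window, a region in a Psmc2 exon with its summit 1434 bp from the TSS was in both IDR-thresholded lists. In the conservative list it had a fold of 7.58, against 5.54 for the Psmc2 promoter region. Psmc2 shares its promoter with Dnajc2, whose TSS lies within 1 kb. Among the Psmd genes, Psmd6, a lid subunit, had the highest mean, with 11.4 and 12.2 (11.8 ± 0.58, SD, n = 2), although Psmd11 was higher in replicate 2 at 12.4. Psmd1, a scaffold of the base, was lowest with 6.09 and 5.85. Replicate 2 was the higher library at 12 of the 14 Psmd promoters and at 4 of the 6 Psmc promoters. The genes of this particle that bind or remove ubiquitin were in the same range: Psmd4, a ubiquitin receptor, had 11.3 and 11.1, and Psmd14, the deubiquitinase of the lid, had 8.47 and 9.01.

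The 4 activators were open in both libraries. Psme4, the large single-chain activator, had 9.33 and 9.46, the highest of the class, and Psme3, the nuclear activator, had 7.73 and 8.51. The inhibitor Psmf1 had the lowest fold of all open members, 3.94 and 4.14, with a −log10 p of 21.8 and 25.1. Only 0.271% of all open promoters were lower. The matched region of Psmf1 had its summit 1036 bp downstream of the TSS in replicate 1 and 1039 bp in replicate 2, and the longer lists of both libraries also held another region near a different Psmf1 TSS, at 4.38 and 4.20. The assembly chaperones of the Psmg series were open in 3 of 4 genes. Psmg4 was highest with 10.3 and 9.97 and Psmg3 lowest with 5.40 and 5.69, in the same order in both libraries. Psmg2 passed in replicate 1 only, at 4.33, and stood at 5.50 in the longer list of replicate 2.

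A pair of genes met the symbol rule by prefix alone, outside the subunits, activators, inhibitor and chaperones above. Psmc3ip, a factor of meiotic recombination, was open at 10.2 and 11.7. Psme2b, a copy of Psme2, had no region in any list.

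**Figure D2:**
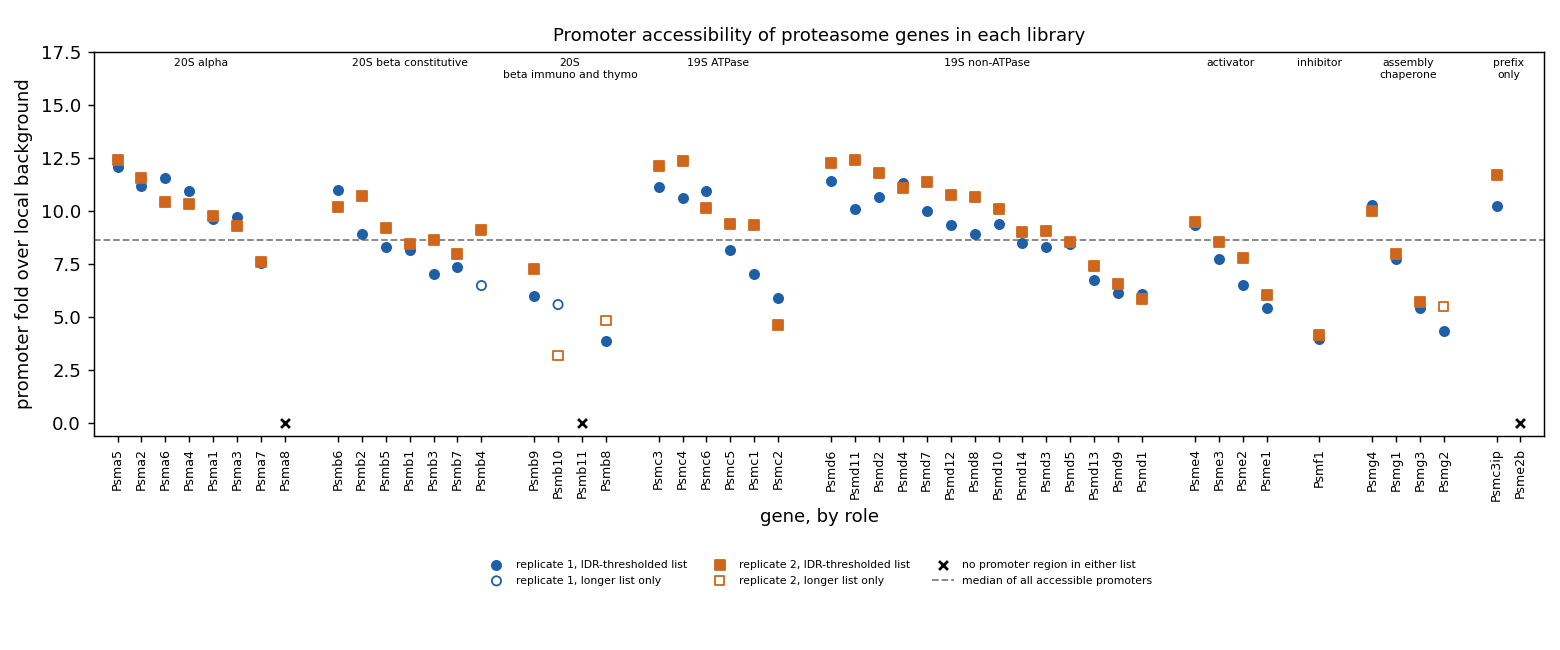
Promoter fold (vertical axis) of the 50 proteasome genes (horizontal axis, by role and then by mean fold) in replicate 1 (blue circles) and replicate 2 (orange squares). The axis label reads fold over local background, but what the fold is taken over is not given in the sources used here. Open symbols mark a region found in the longer pseudoreplicated list only, crosses no region, and the dashed line the median of 8.63 over all open promoters. Most 20S alpha and 19S points lie above the line and the points of Psmb8, Psmb9 and Psmb10 below it, with the open symbols of Psmb10 belonging to different regions.

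Of the 5 related genes (Psmb8, Psmb9, Psmb10, Psme1 and Psme2), 3 were open in both libraries, and none of those 3 reached the all-gene median. Psmb9 had 5.96 and 7.28 (mean 6.62 ± 0.93, SD, n = 2), Psme1 had 5.42 and 6.04 (mean 5.73 ± 0.44), and Psme2 had 6.52 and 7.78 (mean 7.15 ± 0.89). The catalytic subunits that Psmb8, Psmb9 and Psmb10 replace stood at 8.30 and 9.21 for Psmb5 (mean 8.76 ± 0.64), 11.0 and 10.2 for Psmb6, and 7.33 and 7.95 for Psmb7. Psmb9, the one replacement subunit open in both libraries, stood below Psmb6, which it replaces, in each library, in a region that it shares with Tap1. Psme1 and Psme2 are activators and replace no catalytic subunit, so their values stand beside those of the core without a partner. No comparison of the 5 as a group is made, since Psmb8 and Psmb10 lack a call in both libraries.

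Psmb8 and Psmb10 were the genes that did not pass in both libraries. Psmb8 passed in replicate 1 at 3.87, through a region whose summit lay 1016 bp upstream of its TSS, and replicate 2 listed a region there at 4.84 in its longer list. The conservative list held a region at the Psmb8 TSS itself, at chr17:34197513-34197882, with a fold of 4.30. Psmb10 passed in neither library. Its strongest region in the conservative list, chr8:105936824-105937760, had a fold of 6.33 and a summit 1375 bp inside the gene, and the region at the TSS in the longer list of replicate 2 had 3.18. With the longer lists all 5 genes counted as open in both libraries, so the count of 3 rests on the stricter threshold. Psmb10 then counted through regions that did not overlap, at 5.58 inside the gene in replicate 1 and 3.18 at the TSS in replicate 2. The count of 5 thus also rests on accepting any region that meets the window.

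Some of these promoters are shared or lie away from the TSS. The TSS of Psmb9 and that of Tap1, the peptide transporter of antigen presentation, lie 38 bp apart, so the region chr17:34187198-34188009 is the promoter of both and its fold cannot be assigned to one of them. Psme2 has the TSS of Rnf31, a ubiquitin ligase subunit, at 595 bp, and its summit lay 531 bp upstream of its own TSS in replicate 1 and 542 bp in replicate 2. Without promoters shared with another gene, 1 of 3 of these genes was open in both libraries, beside 40.4% of all genes without such sharing, too few genes to read a difference from. Psmb5 had its summit 2 bp upstream of the TSS in replicate 1 and 9 bp in replicate 2, and Psmb6 had it 56 bp and 63 bp upstream.

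The E2 enzymes that carry ubiquitin were open in 20 of 28 genes, with a median fold of 7.90. Ube2t, the E2 of the Fanconi anaemia pathway, was highest with 11.7 and 13.2 (mean 12.4 ± 1.08, SD, n = 2). Ube2b, a homologue of yeast Rad6, was lowest with 5.30 and 5.62, and its paralogue Ube2a had 9.86 and 8.79. Ube2c, which works with the anaphase-promoting complex in mitosis, had 9.72 and 11.0, and its partner in chain elongation, Ube2s, had 9.57 and 10.6. These mitotic E2 genes lay above the median of all open promoters in each library. Ube2o and Ube2h, the E2 enzymes of red cell maturation, did not: Ube2o had 6.82 and 6.71 (mean 6.77 ± 0.074) and Ube2h 6.50 and 6.93 (mean 6.71 ± 0.31).

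The E2 enzymes of ubiquitin-like proteins were open in 4 of 4 genes and spread widely. Ube2l6, the E2 for ISG15 and itself an interferon-induced gene, had 10.1 and 10.6, above the 3 open immunoproteasome genes in each library. Ube2f, one of the NEDD8 enzymes, had 9.01 and 9.12, and Ube2m, the other, had 4.64 and 4.35, the lowest mean of the open Ube2 promoters. The 2 variants that lack the catalytic residue and form a dimer with Ube2n stood far apart. Ube2v2 had 13.9 and 15.6 (mean 14.8 ± 1.22, SD, n = 2, with a −log10 p of 66.7 and 73.0), higher than 98.9% of all open promoters, and Ube2v1 had 5.04 and 4.60, higher than 2.0%. Their partner Ube2n lay between them at 9.66 and 9.90. Ube2cbp, which met the symbol rule but is outside these E2 classes, was open at 7.15 and 7.07.

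**Figure D3:**
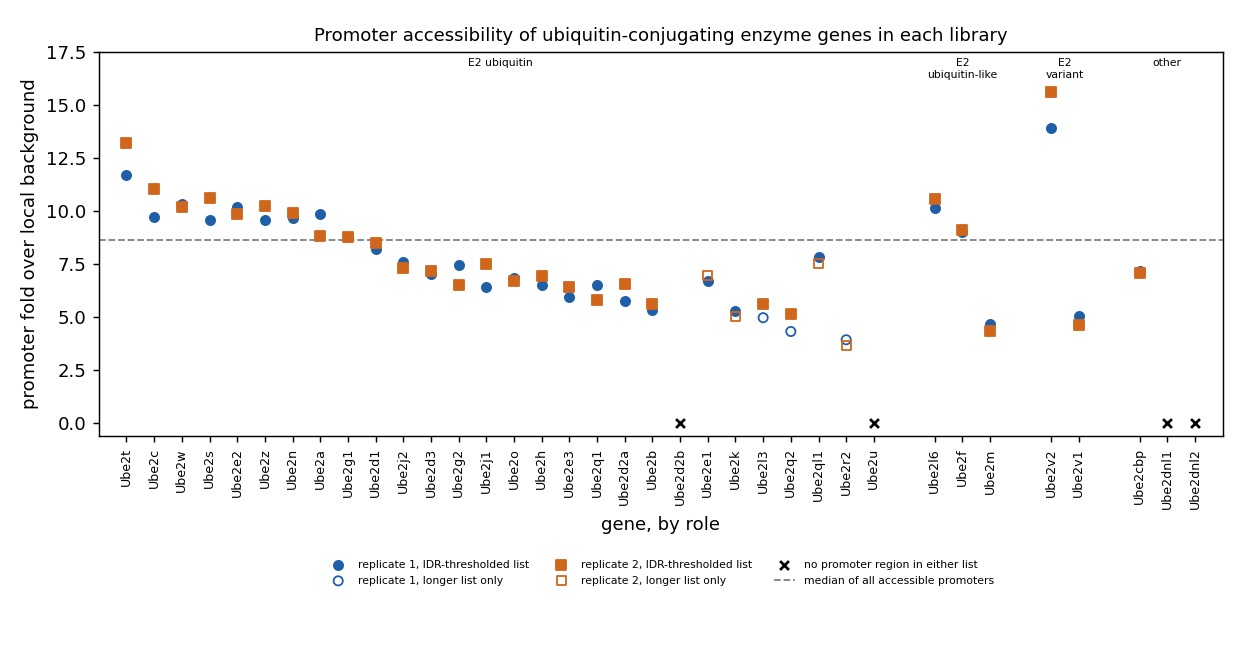
Promoter fold (vertical axis) of 36 of the 37 ubiquitin-conjugating genes (horizontal axis, by role and then by mean fold) in replicate 1 (blue circles) and replicate 2 (orange squares). The axis label reads fold over local background, but what the fold is taken over is not given in the sources used here. Open symbols mark a region found in the longer pseudoreplicated list only, crosses no region, and the dashed line the median of 8.63 over all open promoters. The points of Ube2l3 belong to different regions, Ube2v2 stands alone at the top with 13.9 and 15.6, and the open promoters of 12 genes have a mean above the line.

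The 17 genes without a call in both libraries fell into 3 kinds. No promoter region in any list was found for 7 genes: Psma8, Psmb11, Psme2b, Ube2u, Ube2d2b, Ube2dnl1 and Ube2dnl2. Psmb11 encodes the subunit specific to the cortex of the thymus. Another 2, Psmb10 and Ube2r2, passed in neither IDR-thresholded list but had regions in the longer lists and in the conservative list, with Ube2r2 at 3.92 and 3.65 in the longer lists and 4.04 in the conservative one. The other 8 passed in 1 library, 5 of them in replicate 1 (Psmb8, Psmg2, Ube2k, Ube2ql1 and Ube2e1) and 3 in replicate 2 (Psmb4, Ube2q2 and Ube2l3). All 8 had a region in the longer list of the other library. Ube2ql1 had 7.83 in replicate 1 and 7.50 in the longer list of replicate 2, and Ube2e1 had 6.67 and 6.94, so their folds were close even where only one library passed. Ube2k was at 5.27 and 5.01 and Ube2q2 at 4.31 and 5.13. Ube2l3 passed in replicate 2 through a region at 5.60, and another region, at its TSS, was in the longer lists of both libraries at 4.96 and 5.23.

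Summits lay close to the start sites at most members. In the conservative list the summit lay within 200 bp of a TSS at 42 of 45 proteasome promoters (93.3%) and 28 of 33 Ube2 promoters (84.8%), beside 78.3% of all promoters measured so. The base composition differed between the groups. The median GC content of the window reaching 150 bp to either side of the summit was 60.8% for the proteasome and 68.1% for the Ube2 promoters, beside 63.1% for all. A second coding TSS lay within 1 kb at 12 of 50 proteasome genes (24%), 2 of 37 Ube2 genes (5.41%) and 12.9% of all genes. On the proteasome side these included Psma2 with Mrpl32, Psma7 with Ss18l1, Psmb1 with Tbp, Psmc5 with Ftsj3 and Psmd13 with Sirt3. Fold at such promoters belongs to both genes. With shared promoters left out, 32 of 38 proteasome and 26 of 35 Ube2 genes were open in both libraries (84.2% and 74.3%), beside 40.4% of all such genes.

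Short motifs were counted within 150 bp of the summit on both strands, in 45 proteasome and 33 Ube2 windows and in the 10465 distinct promoter windows of all genes. The ETS core CCGGAAG, shown in the sequences of Psmd6, Psmc3, Psmd11, Psmd2 and Ube2v2 above, was present at 19 of 45 proteasome promoters (42.2%) and 10 of 33 Ube2 promoters (30.3%), beside 19.3% of all windows. At Psmd6 its centre lay 3 bp upstream of the TSS and at Ube2v2 2 bp upstream. Proteasome genes with the match had a median fold of 10.04 and those with a window but no match 8.77. Among Ube2 genes the same medians were 7.46 and 7.72, so the order was the opposite one there. A match is a run of letters and not evidence of a bound factor.

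The ISRE core GAAANNGAA was found at 7 of 45 proteasome promoters (15.6%), at 0 of 33 Ube2 promoters, and in 5.37% of all windows. The 7 genes were Psma4, Psmb3, Psmb4, Psmd4, Psmd7, Psme1 and Psmg4, so Psme1 was the only one of the 5 immunoproteasome-related genes among them. The windows of Psmb8, Psmb9 and Psme2 held no match, and Psmb10 had no window because its summit lay over 1 kb from the TSS. For Psmb9 and Psme2, a reach of 150 bp from the summit did not include a TSS of the gene. The missing match at Psmb9 and Psme2 therefore describes the sequence around the summit and not that at their start sites. The antioxidant response element core TGACNNNGC was found at 11 of 45 (24.4%) and 7 of 33 (21.2%), beside 15.8% of all windows. That difference depended on the window: within 100 bp of the summit the proteasome count was 6 of 45 (13.3%), beside 11.9% of all gene windows. In RefSeq promoter sequences (GRCm38.p6, 38 proteasome genes matched) it was 6 of 38 (15.8%), beside 17.3%. The Ube2 counts in these settings were 5 of 33 (15.2%) and 6 of 26 (23.1%). Within 300 bp of the summit the Ube2 count stayed at 7 of 33 (21.2%), below the 25.9% of all gene windows. At Psmb5, whose sequence is shown above, the match lay 16 bp upstream of the TSS.

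The other motifs were counted in the same windows. The GC box GGGCGG was present at 66.7% of proteasome, 75.8% of Ube2 and 67.7% of all windows. CCAAT was present at 15 of 45 proteasome windows (33.3%), 6 of 33 Ube2 windows (18.2%) and 40.5% of all windows. The GATA core AGATAA was present at 4 of 45 proteasome promoters (8.89%), 0 of 33 Ube2 promoters and 6.74% of all windows. The KLF core CCACACCC was present at 1 promoter in each group (2.22% and 3.03%) and in 4.63% of all windows. The core of nuclear respiratory factor, GCATGCGC, was present at 3 proteasome and 1 Ube2 promoters (6.67% and 3.03%, all windows 5.27%), and that of YY1, ATGGCGGC, at 4 and 1 (8.89% and 3.03%, all windows 5.68%). The E-box CACGTG was present at 4 and 5 (8.89% and 15.2%, all windows 11.05%). CRE (TGACGTCA) was present at 2 and 2 (4.44% and 6.06%, all windows 3.77%), GAS (TTCNNNGAA) at 4 and 2 (8.89% and 6.06%, all windows 5.65%), and the CGCG element (TCTCGCGA) at 2 and 2 (4.44% and 6.06%, all windows 2.40%). The ZNF143 core ACTACAATT matched no member and 0.889% of all windows. With counts as small as these no difference is read from them.

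**Figure D4:**
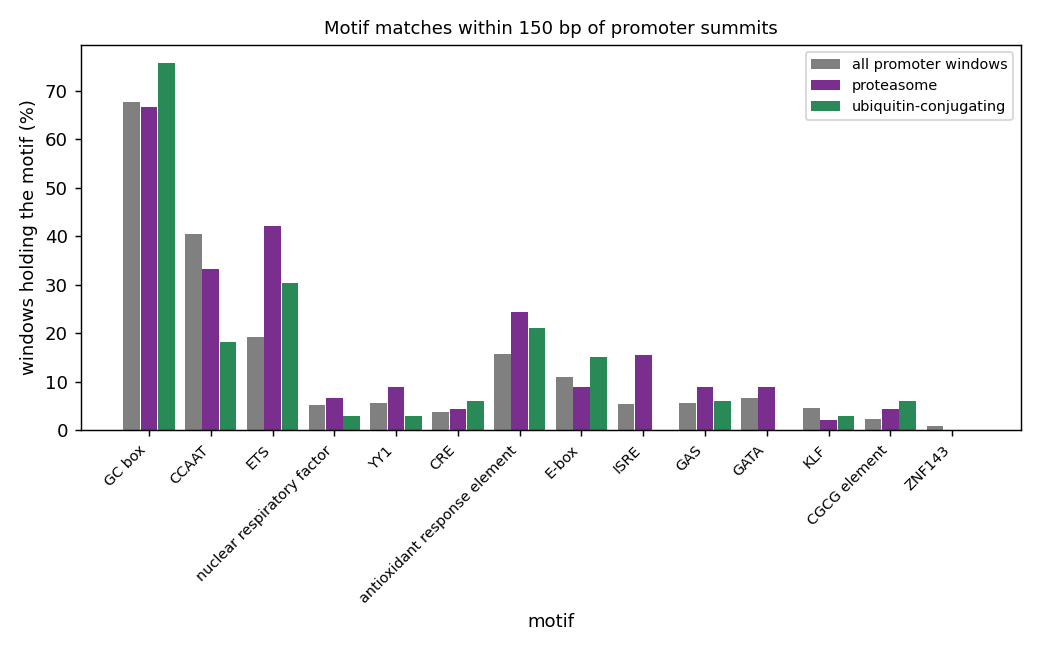
Share of promoter windows (vertical axis, percent, from 0) that hold each of 14 short motifs (horizontal axis) within 150 bp of the summit, for all windows (grey, n = 10465), proteasome (purple, n = 45) and Ube2 genes (green, n = 33). The ETS bars are 19.3%, 42.2% and 30.3% and the ISRE bars 5.37%, 15.6% and 0, and the GC box bars 67.7%, 66.7% and 75.8%.

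Distal regions were those of the conservative list with no coding TSS within 1 kb and a summit within 50 kb of the most upstream TSS of the gene. At least 1 such region stood near 45 of 50 proteasome genes and 30 of 37 Ube2 genes, against 71.6% of all genes. The mean number was 2.84 for proteasome, 3.30 for Ube2, 3.40 for the 5 immunoproteasome-related genes and 2.29 for all genes. These means followed the list: with 1 library alone they were 1.4 to 1.56 for proteasome, 1.54 to 1.84 for Ube2 and 1.10 to 1.22 for all genes. With each region given to its nearest TSS only, the immunoproteasome-related genes had a mean of 0.6 against 1.01 for all genes, the opposite order. The window is shared between neighbours, so the regions are not known to act on the gene. Of 264 pairs of a member and a region, 104 had the member as the nearest TSS and 51 lay within the member's own gene body. The 253 distinct regions had a median fold of 6.15 against 6.36 for all 32778 distal regions, and 39.5% of them were in both IDR-thresholded lists against 38.9% of all. The GATA core AGATAA was found within 100 bp of the summit in 74 (29.2%), beside 29.3% of all distal regions. The fold of each library given below for a distal region is that of its longer pseudoreplicated list.

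**Figure D5:**
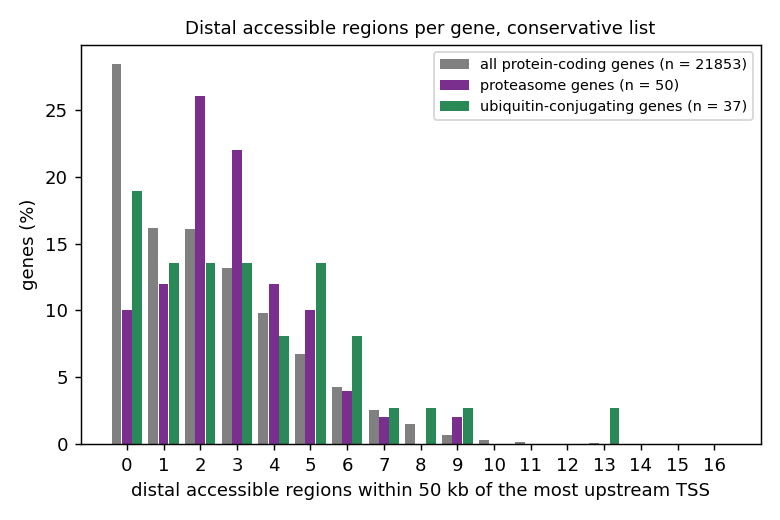
Share of genes (vertical axis, percent, from 0) by number of distal accessible regions within 50 kb of the most upstream TSS in the conservative list (horizontal axis), for all protein-coding genes (grey, n = 21853), proteasome genes (purple, n = 50) and Ube2 genes (green, n = 37). No distal region was found for 28.4% of all genes, 10% of proteasome genes and 18.9% of Ube2 genes, and the single green bar at 13 is Ube2o.

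Ube2o had the most distal regions of any member, 13, while the highest count of any gene was 16. Within its own gene lay 6 of the 13, with the others in Aanat, in or near Rhbdf2 or, for 1 region, between genes toward Sphk1. Of the 13, 1 was in both IDR-thresholded lists. That one was also the strongest, in a Ube2o intron at chr11:116549248-116550043, with 6.10 in replicate 1 and 7.45 in replicate 2. It held an AGATAA core and lay 32.0 kb downstream of the Ube2o TSS. Sphk1, and not Ube2o, had the nearest coding TSS to it and to others of the 6 regions within Ube2o. The next strongest, at chr11:116586656-116587335 in an Aanat intron 5.51 kb upstream of the Ube2o TSS, had 4.94 and 6.35.

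Ube2v1 had 9, of which 5 were in both IDR-thresholded lists, while Ube2v2, the variant with the higher promoter fold, had 2 in all. By the fold of the conservative list, which ranks the regions here and below, its strongest were chr2:167672279-167672747 in a Tmem189 intron (6.84 and 8.49) and chr2:167588696-167589817 between genes (6.30 and 7.69). A region in its own intron, chr2:167628631-167629523, came close behind in that list, at 7.42 against 7.47, and was higher than the second in each library (6.69 and 7.82). Ube2c had 8, led by chr2:164815429-164816199 in a Zswim3 intron (8.63 and 6.56) and chr2:164761539-164762160 in a Dnttip1 intron 8.18 kb upstream (6.61 and 7.46). Ube2j2, an E2 of degradation at the endoplasmic reticulum, had 7, led by chr4:155981486-155982422 (6.11 and 5.95) and chr4:155970194-155970767 (4.38 and 4.93), both between genes.

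Among proteasome genes Psmd12 had 9 distal regions, of which 2 were in both IDR-thresholded lists. The strongest were chr11:107516462-107516839 between genes (6.15 and 5.67) and chr11:107451063-107451718 in a Pitpnc1 intron (6.40 and 5.36). Neither of these was in both IDR-thresholded lists, and their nearest coding genes were Helz and Pitpnc1. Psmd3 had 7, led by chr11:98635130-98635771 in a Gsdma3 intron (9.72 and 7.97) and chr11:98654899-98655583 in a Gsdma2 intron (7.49 and 7.63). Psma1 had 6, led by chr7:114281694-114282018 between genes and 5.74 kb upstream of its TSS (9.25 and 10.5), then chr7:114301258-114301819 at 25.4 kb (7.41 and 9.07). For both of these Psma1 was the nearest coding gene, and both were in both IDR-thresholded lists. Psmb4 had 6, led by chr3:94926148-94926906 (9.31 and 10.7) and chr3:94906419-94907010 (6.50 and 6.75), both between genes.

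The strongest distal region near any member, chr16:17222289-17222577, had a fold of 15.8 in the conservative list and lay 19.8 kb upstream of Ube2l3, with Hic2 as its nearest coding gene. The next, near Ube2cbp, lay in a Dop1a intron at 15.2. Near Ube2q2, which was itself its nearest gene, an intergenic region reached 14.2 at 38.2 kb upstream. Psmb8 and Psmb9 are neighbours and had the same 5 distal regions in their windows, of which the strongest, chr17:34171171-34171507, had 8.12 and 8.85. Psmb5 and Psmb11 likewise shared 4, led by chr14:54602853-54603677 at 11.4 and 12.1, although Psmb11 had no promoter region.

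The genes of the same pathway outside the symbol rule were open in 36 of 38 cases, against 45.7% of all genes. Their median fold was 7.41, below the 8.63 of all open promoters. Nfe2l1, the transcription factor that raises proteasome genes when the protease is short, had 10.7 and 11.0, and Nfe2l2 had 5.17 and 5.42. Among E1 enzymes Uba6 had 11.96 and 12.29, Uba1 7.07 and 6.73, and Uba7, the E1 for ISG15, 4.70 and 4.43. Uba7 thus stood below Ube2l6, the E2 of the same modifier. Cdc34, an E2 without the Ube2 prefix, had 6.05 and 5.52. Trim58 and Fbxo7, E3 components active in red cell precursors, had 4.40 and 5.32, and 5.02 and 5.17. Tap2 passed in replicate 1 only, at 4.89, and Nploc4 in neither library. In the longer lists of both libraries, and in the conservative list, all 38 were open, against 56.5% and 54.5% of all genes.

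The label of the cells was checked by promoter regions at marker genes. Of 9 genes of erythroid and megakaryocyte progenitors, 7 were open in both libraries (Gata1, Klf1, Epor, Nfe2, Zfpm1, Kit and Tfrc). Itga2b, a megakaryocyte gene, was open in the longer lists only. Of 12 genes of other cell types, 1 was open in both libraries, the lymphoid gene Ebf1 at 9.94 and 11.2. Rag1, also lymphoid, appeared in the longer lists of both libraries but in neither IDR-thresholded list. Elane, Mpo, Csf1r and Cd3e, markers of granulocytes, macrophages and T cells, had no region in the lists of either library. In the conservative list 7 of the 9 and 2 of the 12 had a promoter region. Accessibility does not measure RNA, and the part of other cells in the values above was not tested. The lists hold 26353 regions in replicate 1 and 28142 in replicate 2, and read depth was not analysed here.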

How the data were processed

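ATAC-seq peak lists of 2 libraries were used, on mm10 per the file headers and the labels. The deposited ratio (fold) column and the deposited −log10 p column are the authors' peak caller values, and neither was scaled between libraries. Each library has an IDR-thresholded and a longer pseudoreplicated list, and the pair has a conservative and a replicated list. For the aligner and the peak caller, their versions and any shift of reads for the transposase, the entry is: not given in the sources used here.

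Overlapping peaks were merged into regions (minimum overlap 1 bp), each with its strongest summit. A promoter is TSS ± 1 kb of any coding transcript of GENCODE M21. Where several regions met it, the pair overlapping between libraries with the highest mean fold was used. Means and SDs are over the 2 libraries (n = 2). Python 3.11.15, pandas 2.3.3 and pysam 0.24.0 were used, and the counting was tested on simulated promoters. Depth is unknown, so no interval is given. The genes named were the immunoproteasome-related genes and counterparts, the highest and lowest fold of each role class, every gene not open in both libraries, the 4 genes of each group with most distal regions, and Ube2o, Ube2h, Ube2l6 and Ube2c. Some genes the rule and the marker list cover are counted in the totals and are not reported here by name. Paralogues, partners, the pathway genes given with values, the genes with the strongest distal regions and the printed sequences were chosen after values were seen. The members and lists were chosen with earlier results of these data known.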

Additional observations from a re-analysis of the deposited data

How the results depend on the processing

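Alternatives were window sizes, other lists, a cut on fold, shared promoters, and leaving out a library. Of 40 promoter counts under alternatives, which include those of all genes, 34 stayed within 1.5 times. With 43 of 50 proteasome and 27 of 37 Ube2 genes open at first, these counts could not rise 1.5 times. For them this limit could only be passed by a fall. The upper 50% of regions by fold gave 13 Ube2, 31 proteasome, 0 immunoproteasome-related and 6057 of all genes. The immunoproteasome count of 3 became 5 with the pseudoreplicated lists and 5 with the conservative list, and 1 without shared promoters. In the pseudoreplicated lists Psmb10 counted through a different region in each library. Without replicate 1 or 2 the counts ranged from 44 to 45 for proteasome, 29 to 30 for Ube2, 3 to 4 for immunoproteasome and 10422 to 10473 for all genes.

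The mean number of distal regions followed the window and the list. For proteasome, Ube2, immunoproteasome-related and all genes, in that order, it was 1.34, 1.54, 1.8 and 1.14 within 25 kb. It was 5.54, 5.87, 5.6 and 4.48 within 100 kb. With regions given to the nearest TSS it was 1.1, 1.32, 0.6 and 1.01, so the immunoproteasome genes then fell below all genes. In the replicated list it was 5.88, 5.51, 6.8 and 4.42, and for the upper 50% of regions 1.08, 1.35, 1.2 and 0.924. Beyond 2 kb it was 2.38, 3.16, 2.8 and 2.08. In the list of 1 library it ranged from 1.4 to 1.56 for proteasome, 1.54 to 1.84 for Ube2, was 2 for immunoproteasome, and ranged from 1.10 to 1.22 for all genes.

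The median promoter fold was 8.77 for proteasome and 7.09 for Ube2 genes with the pseudoreplicated lists (all genes 7.87). It was 8.47 and 7.52 without replicate 2 (all genes 8.24), and 9.37 and 7.33 without replicate 1 (all genes 8.68). The alternative motif windows were chosen after seeing the data. ETS counts stayed within 1.5 times in each. The proteasome count of the antioxidant response element core was 21 of 45 within 300 bp of the summit (25.9% of all gene windows), and that of ISRE was 12 of 45 (12.7% of all gene windows), with 3 of 33 Ube2 genes. No paired analysis was possible because there is 1 group and no test. The causes of these shifts were not tested beyond what each setting changes by construction.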
